A study of Homo sapiens with 8 samples.

Results

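The death receptors and extrinsic apoptosis genes described here were measured in Raji, a B lymphoblast line derived from Burkitt lymphoma. They were chosen by gene name. Of the 25377 genes of the RNA table, 7 were members, namely FAS, TNFRSF10A, TNFRSF10B, TNFRSF21, FADD, CASP8 and CFLAR, and of the 70312 ATAC-seq peaks, 40 were assigned to them as nearest gene. RGS-SE knockout cells, which carry a CRISPR/Cas9 deletion within a super-enhancer region of chromosome 1 near RGS1 and RGS13 (labelled interval chr1:192515157-192741754, hg38), were compared with wild-type Raji cells that carry no such deletion. Both genotypes were measured by RNA-seq of poly(A) RNA and by ATAC-seq, which reads open chromatin by transposase insertion, with 2 libraries per genotype and assay and 8 in all. The labels describe knockout lines picked as single clones without giving their number, so genotype and clone cannot be told apart. The labels call the libraries replicates, and it is not stated whether knockout replicates are separate clones, so the tests measure the spread between these libraries. Of the members, 2 lie on chromosome 8 between 0 and 45 Mb, an arm whose RNA and ATAC signal was higher in the knockout as a whole. They are TNFRSF10A (ENSG00000104689) at chr8:23190452-23225102 and TNFRSF10B (ENSG00000120889) at chr8:23020133-23069031, both on the minus strand of hg38, and 6 of the 40 peaks lie there with them.

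Death receptors are surface proteins of the tumour necrosis factor (TNF) receptor superfamily that carry a death domain inside the cell. When their ligands bind, FAS and the TRAIL receptors TNFRSF10A (DR4) and TNFRSF10B (DR5) gather the adaptor FADD, which recruits the initiator caspase CASP8. CFLAR encodes FLIP, a CASP8-like protein that sits in the same complex and restrains CASP8 activation. In B cells, FAS helps remove activated and autoreactive cells.

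The 5 members FAS, TNFRSF21, FADD, CASP8 and CFLAR have the following places on hg38. FAS (ENSG00000026103) lies at chr10:88953813-89029605 on the plus strand, TNFRSF21 (ENSG00000146072) at chr6:47231532-47309905 on the minus strand and FADD (ENSG00000168040) at chr11:70203296-70207390 on the plus strand. CFLAR (ENSG00000003402) at chr2:201116154-201176687 and CASP8 (ENSG00000064012) at chr2:201233443-201361836 are neighbours on the plus strand.

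The sequences below are changed open sites of these members, shown because the accessibility results turn on them. The first pair holds the 250 bases upstream of the RefSeq start of each gene, inside a peak that gained reads in the knockout (RefSeq, GRCh38.p14), for TNFRSF21 at chr6:47309906-47310155 on the minus strand and for FADD at chr11:70203046-70203295 on the plus strand. Capitals mark matches, on either strand, to the GC box GGGCGG, the E box CACGTG, the AP-1 motif TGANTCA, the box named CCAAT or the TATA box TATAAA.
TNFRSF21 upstream: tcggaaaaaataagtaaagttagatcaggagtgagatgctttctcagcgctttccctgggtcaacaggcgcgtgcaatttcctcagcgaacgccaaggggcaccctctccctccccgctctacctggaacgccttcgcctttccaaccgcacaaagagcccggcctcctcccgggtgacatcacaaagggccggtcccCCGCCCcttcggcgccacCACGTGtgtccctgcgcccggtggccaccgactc
FADD upstream: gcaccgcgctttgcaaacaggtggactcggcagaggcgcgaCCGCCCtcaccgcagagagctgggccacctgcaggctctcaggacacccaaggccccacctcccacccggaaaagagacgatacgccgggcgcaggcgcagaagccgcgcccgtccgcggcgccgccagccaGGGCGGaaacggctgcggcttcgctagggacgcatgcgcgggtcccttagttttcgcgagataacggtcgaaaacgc
Upstream of TNFRSF21 there was 1 match to the GC box and 1 to the E box, and upstream of FADD there were 2 to the GC box, none overlapping another. Over the 35116 promoter windows of the RefSeq table, the GC box was found in 42.6% and the E box in 6.34%. The AP-1 motif occurred in 6.57%, CCAAT in 32.0% and the TATA box in 10.7% of those windows, and in neither window printed. The ETS core GGAA was also searched and is not marked, as 92.7% of windows hold it. A match describes the letters and is not evidence of binding.

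The next 2 sequences are the central 300 bases of changed intronic peaks, on the plus strand of hg38. They are the TNFRSF21 peak with the highest fold change (chr6:47288430-47288729) and the TNFRSF21 peak with the lowest (chr6:47235931-47236230).
TNFRSF21 gained peak: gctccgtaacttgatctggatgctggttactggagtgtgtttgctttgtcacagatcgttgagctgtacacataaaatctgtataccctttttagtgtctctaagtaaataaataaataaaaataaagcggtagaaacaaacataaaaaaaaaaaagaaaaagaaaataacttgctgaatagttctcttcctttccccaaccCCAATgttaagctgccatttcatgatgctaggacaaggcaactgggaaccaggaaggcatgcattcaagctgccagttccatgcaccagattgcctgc
TNFRSF21 reduced peak: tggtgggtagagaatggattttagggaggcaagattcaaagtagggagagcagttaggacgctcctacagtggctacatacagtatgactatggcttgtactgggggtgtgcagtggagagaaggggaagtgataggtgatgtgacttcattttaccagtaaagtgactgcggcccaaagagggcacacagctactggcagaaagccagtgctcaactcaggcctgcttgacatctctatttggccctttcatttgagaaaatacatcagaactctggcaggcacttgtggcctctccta
The gained TNFRSF21 site held 1 CCAAT match, a motif present in 31.2% of the central windows of all peaks. The reduced TNFRSF21 site held no match to any marked motif.

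The authors' deposited tables give 1 mean and 1 fold change per gene or peak. Whole read numbers for each library were worked back from those means, and the libraries are called a and b, because the arithmetic does not show which is replicate 1. The recovered RNA reads, in genes with a mean of at most 5000, summed to 13100466 and 12655116 in knockout libraries a and b, and to 15784384 and 8830726 in wild-type libraries a and b. ATAC reads summed to 21549066 and 18171752 in knockout and to 21902393 and 18747918 in wild type. Within-pair agreement was unequal for RNA. Over 9198 genes with a mean of at least 100, the median gene differed 1.06-fold between the knockout libraries and 1.22-fold between the wild-type libraries, and 1.72% of genes against 16.9% differed over 1.5-fold. For ATAC the median peak differed 1.07-fold within either genotype. The sign of the deposited fold change is not named in the tables, and positive was read as higher in the knockout. It was read so because 1 peak in the labelled interval (chr1:192609102-192609836) had 0 and 0 reads in the libraries taken as knockout, against 679 and 592 in those taken as wild type. Of the 18 peaks in that interval, the other 17 had reads in both knockout libraries, and over the 18 peaks 3 were called higher, 3 lower and 12 neither, so the reading rests on 1 peak. If that reading is wrong, all directions turn round. Of 8 B cell markers, 8 were in the table at 58.6 to 1050 CPM (normalised counts per 1000000 of the table's total). The T and NK cell markers had 3 of 8 in the table, none above 0.176 CPM, with CD3D, CD3G, CD2, CD7 and GNLY not listed, and summed to 13.9 normalised counts in knockout and 3.84 in wild type. Myeloid markers had 4 of 7 in the table, none above 1.17 CPM (summed 50.2 in knockout, 54.8 in wild type), and epithelial, fibroblast and erythroid markers 3 of 8, none above 6.19 CPM (summed 282 in knockout, 131 in wild type). COL1A1, a fibroblast collagen gene, passed (log2 fold change 1.10 in the authors' deposited table, Wald adjusted p = 0.018) at 277 normalised counts in knockout and 129 in wild type. Of the B cell markers, MS4A1 (1.06) and CD74 (0.73) were higher and CD79B (-0.78) was lower on the log2 scale. The part of these differences in the results was not tested. In bulk samples, fewer cells of a type and less RNA per cell cannot be told apart.

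Members were higher in the knockout wherever they passed the test. In the authors' deposited table, 4 of 7 rose at a Wald adjusted p under 0.05 (CFLAR, TNFRSF10B, FAS and TNFRSF21), 0 fell, and FADD, CASP8 and TNFRSF10A did not pass. Of all 17013 genes tested, 19.2% passed in either direction, 9.89% higher and 9.28% lower. No member was lower at an unadjusted p under 0.05 either. In all 7 both knockout libraries lay above both wild-type libraries, an ordering found in 32.4% of all genes with recovered reads, while both lay below in 0 of 7 and in 29.5% of those genes. For the 2 members on the shifted arm of chromosome 8, TNFRSF10A and TNFRSF10B, the background is higher. There 74.0% of genes had both knockout libraries above, against 32.0% in the rest of the table. TNFRSF10B, on that arm, is among the 4 called. The median log2 fold change was 0.78 over the 7 members and 0.02 over all genes tested. The limma-voom test on the recovered reads also called 4 members, all higher, where it called 15.4% of the 15536 tested genes with recovered reads, those with a mean of at most 5000. Against a change of 1.5-fold in place of no change, 1 member passed the Wald test (CFLAR), as did 3.94% of all genes.

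**Figure D1:**
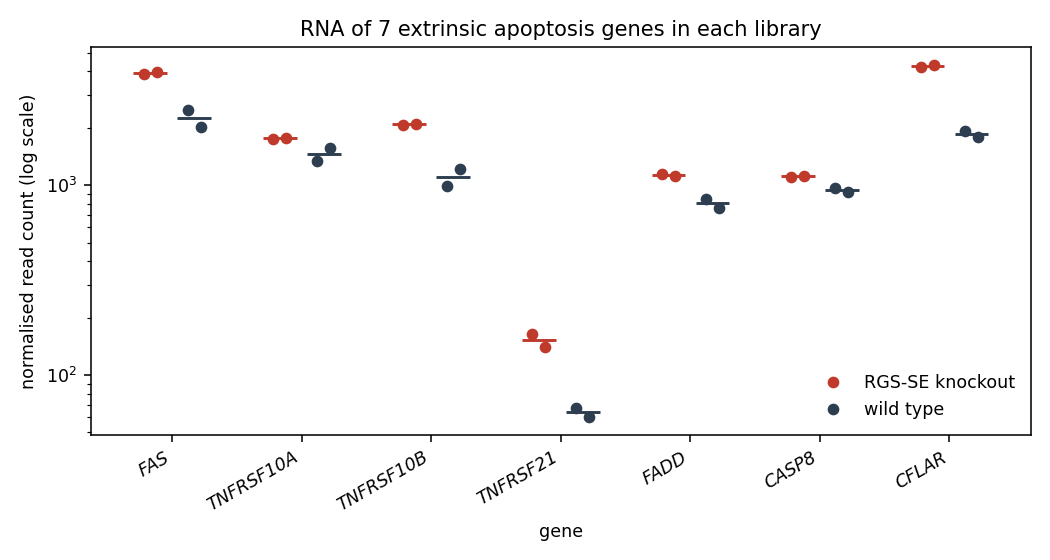
Normalised RNA read counts (log axis) of the 7 genes, with a point per library and a bar at the mean of each genotype, RGS-SE knockout left of wild type. Knockout points lie above wild-type points for each gene, with the widest gaps for TNFRSF21 and CFLAR and the narrowest for CASP8 and TNFRSF10A.

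FAS, the receptor for FAS ligand, had 3864 and 3953 normalised counts in knockout libraries and 2507 and 2042 in wild-type libraries. The genotypes did not overlap, and the wild-type pair differed 1.23-fold between its libraries. In the authors' deposited table the log2 fold change was 0.78 (SE 0.17, 95% interval 0.44 to 1.12, Wald adjusted p = 1.31e-04), a 1.72-fold rise. By limma-voom the adjusted p was 0.00882, and it was 0.0754 without knockout library a and 0.0952 without knockout library b, within a range of 2.24e-05 to 1.00 in all 13 alternatives. STAMBPL1 overlaps FAS on the same strand and ACTA2 on the opposite strand. It is not stated whether counting used strand, so shared reads cannot be assigned. STAMBPL1 had 1272 and 1274 normalised counts in knockout and 1060 and 943 in wild type, with a log2 fold change of 0.34 in the authors' deposited table (Wald adjusted p = 0.24).

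TNFRSF10B, the TRAIL receptor DR5, had 2093 and 2104 normalised counts in knockout and 998 and 1214 in wild type. Both knockout values lay clear of both wild-type values. Its log2 fold change in the authors' deposited table was 0.93 (SE 0.19, 95% interval 0.55 to 1.30, Wald adjusted p = 2.52e-05), or 1.90-fold. TNFRSF10A, the TRAIL receptor DR4, had 1757 and 1782 normalised counts in knockout, against 1342 and 1572 in wild type. The genotypes did not overlap, though the 95% interval of its log2 fold change in the authors' deposited table took in 0 (0.28, SE 0.19, interval -0.09 to 0.65, Wald adjusted p = 0.332). By limma-voom on all 4 libraries, TNFRSF10A had a log2 fold change of 0.30 and was not called (adjusted p = 0.194). Leaving out 1 library in turn, its log2 fold change was 0.17 to 0.40.

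Both TRAIL receptor genes have to be read against their arm. On chromosome 8 from 0 to 45 Mb, 85 of 189 genes tested were higher and 1 lower, that is 44.97% higher against 9.492% in the rest of the table, with a median log2 fold change of 0.79 against 0.01. The rest of chromosome 8 had a median of -0.09. Relative to the arm median, the log2 difference of TNFRSF10B was 0.14 (Wald adjusted p = 0.718) and that of TNFRSF10A was -0.51 (Wald adjusted p = 0.0386). TNFRSF10B therefore lay near the middle of the arm, with 39.2% of its genes higher, and TNFRSF10A near its low end, with 80.4% higher. Relative to the median of the ATAC peaks within 2 Mb, which was 0.89 near each gene, the values were 0.04 for TNFRSF10B (Wald adjusted p = 0.94) and -0.61 for TNFRSF10A (Wald adjusted p = 0.0115). That centring sets RNA against ATAC. The median RNA change of the 38 genes tested within 2 Mb was 0.56 near each gene. Relative to it, TNFRSF10B was at 0.37 and TNFRSF10A at -0.28, differences that were not tested.

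The ratio of the TRAIL receptors to each other is free of the library size and of a shift common to the arm. TNFRSF10B reads per TNFRSF10A read were 1.19 and 1.18 in knockout and 0.744 and 0.772 in wild type. The mean ratio was 1.19 ± 0.008 in knockout and 0.758 ± 0.020 in wild type (SD, n = 2 each), a 1.56-fold difference between groups that did not overlap (exact permutation test, two-sided p = 0.333, the smallest that 2 libraries against 2 can give). More reads came from TNFRSF10B than from TNFRSF10A in the knockout, and fewer in wild type.

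**Figure D2:**
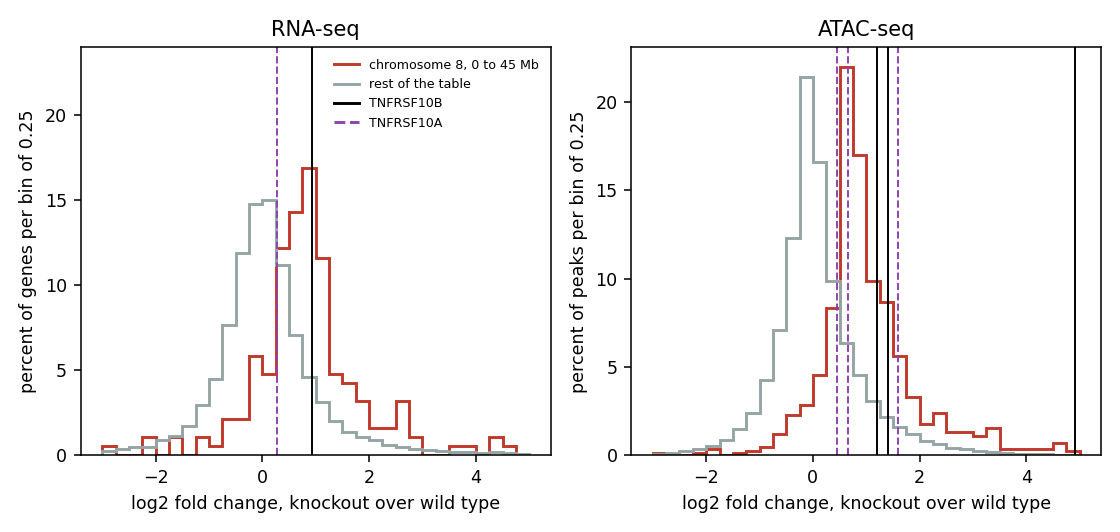
Distribution of log2 fold changes (knockout over wild type) of genes (left) and peaks (right) on chromosome 8 from 0 to 45 Mb and in the rest of each table, as percent per bin of 0.25, with vertical lines at TNFRSF10B and TNFRSF10A and their peaks. The arm is shifted to medians of 0.79 in RNA and 0.86 in ATAC. Values outside the axis are 3.70% of arm genes and 1.07% of arm peaks.

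TNFRSF21, the death receptor DR6, was the least abundant member, with 165 and 141 normalised counts in knockout and 67.5 and 60.0 in wild type. These rest on 176 and 145 reads in knockout and 88 and 43 reads in wild type. The genotypes did not overlap, and the authors' deposited table gives a log2 fold change of 1.26 (SE 0.47, 95% interval 0.33 to 2.19, Wald adjusted p = 0.0435), the highest point estimate and the widest interval of the 7. The call is near its threshold. Adjusted over all genes with no filter on the mean, the Wald adjusted p was 0.0648, and without knockout library a or b the limma-voom adjusted p was 0.363 or 0.182.

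FADD, the adaptor that joins the receptors to CASP8, had 1150 and 1119 normalised counts in knockout and 849 and 757 in wild type. The genotypes did not overlap. Its log2 fold change in the authors' deposited table was 0.50 (SE 0.21, 95% interval 0.09 to 0.90, Wald adjusted p = 0.0744), which did not pass. By limma-voom on all 4 libraries, FADD had a log2 fold change of 0.49 and did not pass (adjusted p = 0.0599). With 1 library left out in turn, it was 0.42 to 0.58. Centred on the median of chromosome 11, the log2 fold change was 0.60 (Wald adjusted p = 0.0238). Centred on the median of the ATAC peaks within 2 Mb, it was 0.36 and did not pass (Wald adjusted p = 0.246).

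CASP8, the initiator caspase, had 1108 and 1123 normalised counts in knockout and 964 and 919 in wild type. The pairs did not overlap, but the difference was small. In the authors' deposited table the log2 fold change was 0.24 (SE 0.20, 95% interval -0.15 to 0.64, Wald adjusted p = 0.467), so a rise of up to 0.64 is within the interval.

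CFLAR, which encodes the CASP8 inhibitor FLIP, had 4200 and 4309 normalised counts in knockout and 1942 and 1795 in wild type. Each knockout library was over 2 times each wild-type library. The authors' deposited table gives a log2 fold change of 1.19 (SE 0.16, 95% interval 0.87 to 1.51, Wald adjusted p = 3.19e-11), or 2.28-fold, the smallest adjusted p among the 7. The call held in each of 13 alternatives, with adjusted p from 2.01e-11 to 0.00871, leaving out any 1 library included. A gene of the same neighbourhood, CASP8 starts 56756 bases beyond the end of CFLAR. CFLAR reads per CASP8 read, a ratio free of the library size, were 3.79 and 3.84 in knockout and 2.01 and 1.95 in wild type. The mean ratio was 3.82 ± 0.03 in knockout and 1.98 ± 0.04 in wild type (SD, n = 2 each), 1.92 times as high, with an exact permutation p of 0.333 (two-sided), again the smallest possible.

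The ratios of the other members off the arm to CASP8 moved less in fold, except that of TNFRSF21. FAS reads per CASP8 read were 3.49 and 3.52 in knockout and 2.60 and 2.22 in wild type, 1.45 times as high. FADD reads per CASP8 read were 1.04 and 0.997 in knockout and 0.881 and 0.824 in wild type, 1.19 times as high. TNFRSF21 reads per CASP8 read were 0.149 and 0.125 in knockout and 0.0701 and 0.0653 in wild type, 2.03 times as high. In each of these 3 ratios the groups did not overlap, and each of the 5 ratios computed had the same exact permutation p of 0.333.

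Per kb of exon in the MANE Select transcript, the order of the genes differed between the genotypes. In knockout it was FAS with 1057 ± 16.9 normalised counts per kb, FADD with 664 ± 12.8, TNFRSF10A with 658 ± 6.59, TNFRSF10B with 525 ± 1.86, CASP8 with 419 ± 4.02, CFLAR with 291 ± 5.27 and TNFRSF21 with 42.6 ± 4.79 (SD, n = 2 each). FADD and TNFRSF10A did not differ beyond their spread. In wild type it was FAS with 615 ± 89.0 normalised counts per kb, TNFRSF10A with 542 ± 60.4, FADD with 470 ± 37.8, CASP8 with 354 ± 11.9, TNFRSF10B with 277 ± 38.1, CFLAR with 128 ± 7.08 and TNFRSF21 with 17.7 ± 1.49 (SD, n = 2 each). FAS and TNFRSF10A, and TNFRSF10A and FADD, lay within their spread there. CFLAR, with many isoforms of different length, has the least certain level on this scale.

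In the chromatin of the 7 genes, 12 of 40 peaks gained reads in the knockout, 3 lost reads and 25 did not pass a Wald adjusted p under 0.05 in the authors' deposited table. Over all peaks 35.9% were called, 20.4% higher and 15.5% lower. The 40 members' peaks were thus called at 37.5%, close to that background. Off the shifted arm, 6 of 34 peaks were higher and 3 lower, 26.5% in all, and on the arm 6 of 6 were higher. By limma-voom on the recovered reads, 20 of the 40 were called, where 49.1% of all peaks were. In 18 of the 40 both knockout libraries lay above both wild-type libraries, as in 36.6% of all peaks, and in 10 both lay below, as in 36.7%. Against a change of 1.5-fold, 5 of the 40 passed, all of them higher, and 8.75% of all peaks did.

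**Figure D3:**
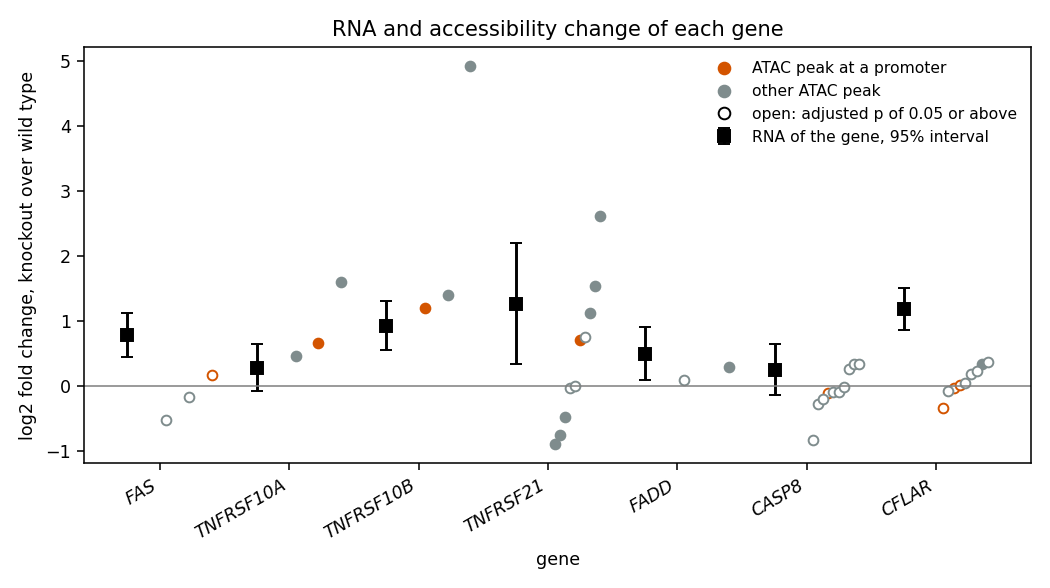
Log2 fold change, knockout over wild type, of the RNA (squares with 95% intervals) and of each assigned ATAC peak (circles, filled where the adjusted p is under 0.05) of the 7 genes. CFLAR and FAS have RNA changes of 1.19 and 0.78 beside peaks annotated as promoter between -0.34 and 0.17, while all 6 peaks of the TRAIL receptor genes lie above 0.

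At FAS, 0 of 3 peaks passed the deposited Wald test, with 2 of 3 at an unadjusted p under 0.05 and 2 called by limma-voom. The FAS promoter peak (chr10:88989896-88992094) had 1456 and 1311 normalised reads in knockout and 1259 and 1202 in wild type. Its knockout libraries were both above, by a log2 fold change of 0.17 (SE 0.08, Wald adjusted p = 0.0665) in the authors' deposited table. A FAS peak 1203 bases upstream of the annotated start (chr10:88989483-88989707), named after its values were seen, went the other way, with 78.0 and 72.5 normalised reads in knockout and 101 and 118 in wild type. Its log2 fold change in the authors' deposited table was -0.53 (SE 0.27, Wald adjusted p = 0.109), and limma-voom called it lower (adjusted p = 0.0303). CASP8 had 0 of 10 peaks past the Wald test, 0 of 10 at an unadjusted p under 0.05 and 0 by limma-voom. Its 1 peak annotated as promoter (chr2:201260361-201260878) had 366 and 392 normalised reads in knockout and 424 and 397 in wild type, a log2 fold change of -0.12 (SE 0.13, Wald adjusted p = 0.518) in the authors' deposited table. A stronger peak, annotated as intronic, lies over the start of the gene as placed above (chr2:201232933-201234504). It had 1002 and 981 normalised reads in knockout and 1026 and 1082 in wild type, a log2 fold change of -0.09 in that table (Wald adjusted p = 0.429).

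CFLAR had 9 peaks, of which 1 passed, with 3 at an unadjusted p under 0.05 and 3 called by limma-voom. The intronic peak that passed (chr2:201126876-201127896) had 372 and 405 normalised reads in knockout and 291 and 324 in wild type. The groups did not overlap, and the log2 fold change in the authors' deposited table was 0.34 (SE 0.14, Wald adjusted p = 0.0463). The call was lost when centred on the chromosome median and, by limma-voom, without knockout library b or wild-type library a. A peak over the start of the CFLAR gene as placed above (chr2:201116119-201116987), annotated as intronic and named after its values were seen, had 323 and 312 normalised reads in knockout and 238 and 257 in wild type. Its groups did not overlap, and the log2 fold change in the authors' deposited table was 0.36 (SE 0.15, Wald adjusted p = 0.0511), with a limma-voom adjusted p of 0.00859. Of the 3 CFLAR peaks annotated as promoter, the one with the most reads (chr2:201118186-201119414) had 786 and 730 normalised reads in knockout and 719 and 787 in wild type. Its groups overlapped, and the log2 fold change in the authors' deposited table was 0.01 (SE 0.10, Wald adjusted p = 0.937). Another, at chr2:201117321-201117909, had a log2 fold change of -0.03 (Wald adjusted p = 0.906), and the other, at chr2:201132468-201133220, one of -0.34 (SE 0.22, Wald adjusted p = 0.225), both in the authors' deposited table. For the promoter peak with the most reads, a gain as large as that of the RNA lay outside the interval, whose upper end was 0.20 on the log2 scale.

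FADD had 2 peaks. The one over its promoter and exon (chr11:70202824-70204221) had 792 and 714 normalised reads in knockout and 624 and 612 in wild type. Its groups did not overlap, with a log2 fold change of 0.29 in the authors' deposited table (SE 0.10, Wald adjusted p = 0.0157). Without knockout library a, limma-voom no longer called it (log2 fold change 0.21), and centred on the local ATAC median its log2 fold change was 0.15 and the call was lost.

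TNFRSF21 had the most varied chromatin of the 5 genes off the arm, with 4 of 10 peaks higher, 3 lower and 3 not called in the authors' deposited table. Its promoter peak (chr6:47309552-47310391) had 311 and 258 normalised reads in knockout and 201 and 148 in wild type. The groups did not overlap, and the log2 fold change in the authors' deposited table was 0.70 (SE 0.19, Wald adjusted p = 9.80e-04), but 0.34 and no call when centred on the median of chromosome 6. The median of the ATAC peaks within 2 Mb was 0.008, and relative to that the log2 difference of the promoter peak was 0.695. An intronic peak 21324 bases downstream of the start (chr6:47288157-47289004) had 83.6 and 67.0 normalised reads in knockout and 10.0 and 14.8 in wild type. It was nearly closed in wild type, and its log2 fold change was 2.62 in the authors' deposited table (SE 0.45, Wald adjusted p = 7.33e-08). Another intronic peak, 73824 bases downstream (chr6:47235751-47236411), had 96.6 and 119 normalised reads in knockout and 192 and 208 in wild type. There the knockout was lower, by -0.90 on the log2 scale in the authors' deposited table (SE 0.21, Wald adjusted p = 1.69e-04).

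**Figure D4:**
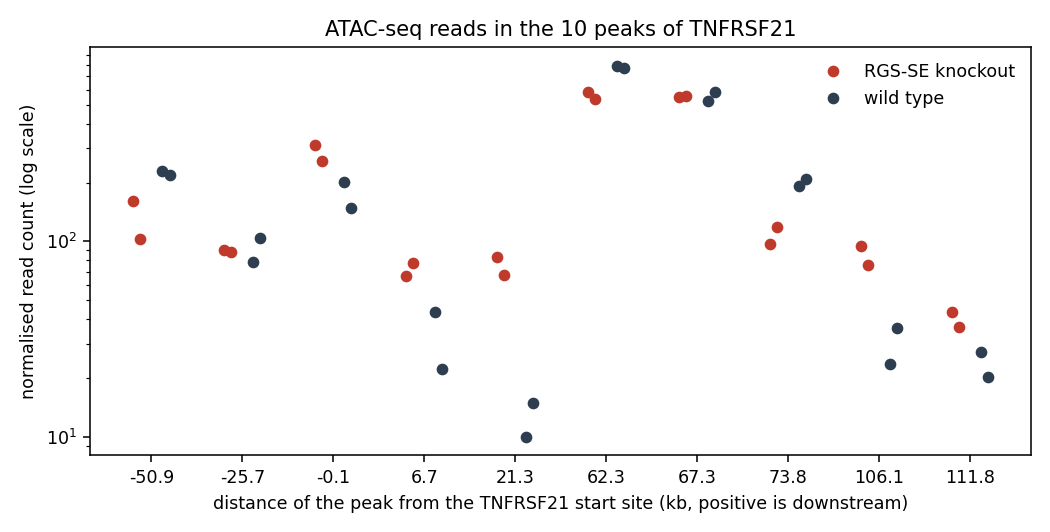
Normalised ATAC read counts (log axis) in each library at the 10 peaks of TNFRSF21, ordered by distance from its start site in kb, knockout points left of wild-type points. Knockout points are higher at the promoter and at 6.7, 21.3 and 106.1 kb, and lower at -50.9, 62.3 and 73.8 kb, all of them called. At 111.8 kb both knockout points also lie above both wild-type points, at a peak that was not called.

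The TRAIL receptor peaks were all higher in the knockout, as were 69.88% of the 840 peaks of their arm, whose median log2 fold change was 0.86 against -0.02 in the rest of the table. The TNFRSF10B promoter peak (chr8:23068565-23069495) had 662 and 730 normalised reads in knockout and 288 and 321 in wild type. Its log2 fold change was 1.19 in the authors' deposited table (SE 0.12, Wald adjusted p = 9.55e-21), and 0.34 above the arm median (Wald adjusted p = 0.02). Of the arm's peaks, 32.5% were higher than that. The tests against the arm median use the SE of the peak alone, not the spread of the arm's peaks. A peak 1289 bases upstream of the TNFRSF10B start (chr8:23070167-23070473) had 131 and 135 normalised reads in knockout and 3.63 and 5.30 in wild type. It was all but closed in wild type. The log2 fold change was 4.91 in the authors' deposited table (SE 0.55, Wald adjusted p = 2.78e-17) and 4.06 above the arm median, which 1.07% of the arm's peaks exceeded.

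TNFRSF10A peaks split around the arm median. The peak 5938 bases downstream of its start (chr8:23218249-23220078) had 1054 and 975 normalised reads in knockout and 358 and 312 in wild type. The groups lay far apart, at a log2 fold change of 1.60 in the authors' deposited table (SE 0.11, Wald adjusted p = 2.86e-46), which is 0.74 above the arm median (Wald adjusted p = 2.15e-10). Still, 19.9% of the arm's peaks were higher than that, and the test uses the SE of the peak alone. Its promoter peak (chr8:23224194-23225605) had 1163 and 1159 normalised reads in knockout and 712 and 758 in wild type. That log2 fold change of 0.66 (SE 0.08, Wald adjusted p = 1.92e-13) in the authors' deposited table differed from the arm median by -0.20 (Wald adjusted p = 0.0547), with 64.8% of the arm's peaks higher. A peak 4119 bases downstream (chr8:23220336-23221629) had 1391 and 1307 normalised reads in knockout and 1022 and 948 in wild type. It was higher by 0.45 on the log2 scale in the authors' deposited table (SE 0.08, Wald adjusted p = 1.09e-07) and differed from the arm median by -0.41 (Wald adjusted p = 2.58e-06), with 81.2% of the arm's peaks higher.

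Assignment by nearest gene leaves out peaks inside a member that are named for another gene. Counting peaks inside each gene or within 10 kb in their place, TNFRSF10B had 7 peaks, all 7 higher, and TNFRSF10A had 4 of 4 higher in the authors' deposited table. On their arm 69.88% of peaks were higher. FAS had 9 peaks by position, of which 1 was higher and 1 lower, and CASP8 had 11, of which 1 was lower. TNFRSF21 had 6, with 3 higher and 2 lower, CFLAR had 11, with 1 higher, and FADD had 2, with 1 higher. In all, 17 were higher and 4 lower, where 20.4% of all peaks were higher and 15.5% lower.

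Beyond the 7 members, 61 other genes of the route were listed, of which 55 were in the table and 53 were tested. In the table deposited by the authors, 8 of these rose, 9 fell and 36 did not pass a Wald adjusted p under 0.05, that is 32.1% called against 19.2% of all genes, with a median log2 fold change of -0.08. These genes did not share the members' common direction. Reads of 8 of the 53 were not recovered, so limma-voom tested 45, of which it called 5 higher and 6 lower. Of the 8 genes called higher by the Wald test, TRAF1, TNFAIP3 and BIRC3 were not among those 45, and limma-voom called 4 of the other 5, all but PTPN13. Of the 9 called lower, FAF1 was not among them, and it called 6 of the other 8.

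**Figure D5:**
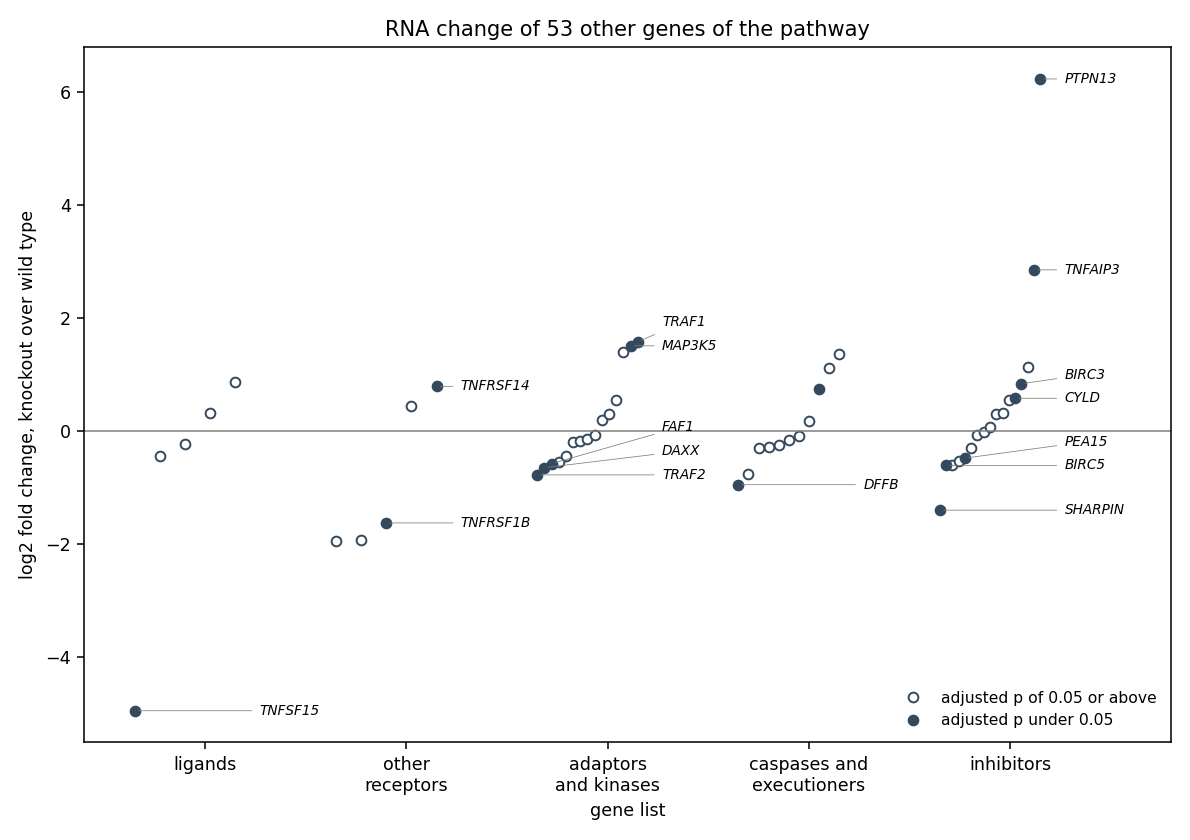
Log2 fold change of RNA, knockout over wild type, for 53 other genes of the pathway in 5 lists, with filled points at an adjusted p under 0.05, named where the text gives them. Called genes lie on both sides of 0 in each list but the ligands, where TNFSF15 alone was called, at -4.95, and the point of PTPN13 rests on 0 wild-type reads.

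Among 5 tested ligands, 1 passed, and it fell. TNFSF15, a TNF family cytokine that binds TNFRSF25, had 2.82 and 4.86 normalised counts in knockout and 128 and 107 in wild type. It was near the limit of detection in the knockout, with a log2 fold change of -4.95 in the authors' deposited table (SE 0.80, Wald adjusted p = 2.07e-08). TNFSF10, which encodes TRAIL, the ligand of both TRAIL receptors, had 165 and 202 normalised counts in knockout and 82.9 and 120 in wild type, and did not pass (log2 fold change 0.86 in the authors' deposited table, SE 0.43, Wald adjusted p = 0.161). FASLG was not among the genes of the RNA table, so it could not be tested.

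Of 5 other receptors tested, 1 rose and 1 fell. TNFRSF14, the receptor HVEM, had 944 and 913 normalised counts in knockout and 519 and 551 in wild type, with a log2 fold change of 0.80 in the authors' deposited table (SE 0.22, Wald adjusted p = 0.00312). TNFRSF1B, the TNF receptor without a death domain, had 109 and 97.1 normalised counts in knockout and 237 and 399 in wild type. Its wild-type libraries differed between themselves but stayed above, and the log2 fold change was -1.62 in the authors' deposited table (SE 0.39, Wald adjusted p = 4.51e-04). Of the TRAIL decoy receptors, TNFRSF10C, which lies on the shifted arm, had 1 read in the knockout libraries and 0 in wild type. TNFRSF10D was not among the genes of the RNA table.

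Among 15 adaptors and kinases, 2 rose and 3 fell. TRAF1, a TNF receptor adaptor, rose by a log2 fold change of 1.59 in the authors' deposited table (SE 0.17, Wald adjusted p = 2.15e-18). MAP3K5, the stress kinase ASK1, had 2736 and 2492 normalised counts in knockout and 872 and 961 in wild type, and rose by 1.51 on the log2 scale in the authors' deposited table (SE 0.18, Wald adjusted p = 1.58e-14). ATAC peaks near MAP3K5 were also higher, by a median of 0.69 on the log2 scale, and relative to that median its log2 difference was 0.82 (Wald adjusted p = 1.60e-04). TRAF2, which carries TNF receptor signals to NF-kB, had 519 and 547 normalised counts in knockout and 806 and 1016 in wild type. It fell, with a log2 fold change of -0.77 in the authors' deposited table (SE 0.23, Wald adjusted p = 0.00824). FAF1, a FAS-binding factor, fell by 0.57 on the log2 scale in the authors' deposited table (Wald adjusted p = 0.0207). DAXX, a FAS-associated protein named here after its values were seen, also fell, at 2880 and 2974 normalised counts in knockout and 3389 and 5757 in wild type, 2 wild-type libraries that differ widely. RIPK1 and TRADD, the adaptors of TNF receptor 1, did not pass, RIPK1 at a log2 fold change of -0.06 and TRADD at one of -0.19 in the authors' deposited table.

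Of 11 caspases and executioners, 2 passed, in opposite directions. DFFB, the nuclease that cuts DNA in dying cells, had 221 and 237 normalised counts in knockout and 358 and 525 in wild type, a log2 fold change of -0.94 in the authors' deposited table (SE 0.31, Wald adjusted p = 0.0184). CASP10, the other initiator caspase of this route, was barely detected, with 21.6 and 16.5 normalised counts in knockout and 7.67 and 6.97 in wild type, and did not pass (log2 fold change of 1.38 in the authors' deposited table, SE 1.28, Wald adjusted p = 0.538).

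Inhibitors and ubiquitin regulators of death receptor complexes moved both ways, with 4 of 17 higher and 3 lower. TNFAIP3, the ubiquitin-editing enzyme A20, rose by a log2 fold change of 2.86 in the authors' deposited table (SE 0.17, Wald adjusted p = 4.82e-61), and BIRC3, the ubiquitin ligase cIAP2, by 0.84 (SE 0.14, Wald adjusted p = 4.91e-08). Near TNFAIP3 the ATAC peaks within 2 Mb had a median log2 fold change of 0.60. Relative to that median, its log2 difference was 2.26 (Wald adjusted p = 8.49e-38). SHARPIN, a subunit of the linear ubiquitin ligase complex, had 222 and 236 normalised counts in knockout and 541 and 667 in wild type. SHARPIN fell, at a log2 fold change of -1.40 in the authors' deposited table (SE 0.28, Wald adjusted p = 1.08e-05), and so did BIRC5, the mitotic protein survivin, at -0.60 (SE 0.16, Wald adjusted p = 0.00132). The ATAC peaks within 2 Mb of SHARPIN had a median log2 fold change of -0.86, relative to which its log2 difference was -0.53 and did not pass (Wald adjusted p = 0.187). CYLD and PEA15 also passed, at log2 fold changes of 0.59 and -0.47, named after their values were seen, and PEA15 lost its call on that centring (log2 difference -0.37, Wald adjusted p = 0.151). PTPN13, likewise named afterwards, had 12 and 18 reads in knockout and 0 and 0 in wild type, the single solution of its mean, which could not be checked against its fold change.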

How the data were processed

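RNA-seq and ATAC-seq of Raji cells, with 2 knockout and 2 wild-type libraries each, were analysed from 2 tables. Trim Galore, Trimmomatic, cutadapt, STAR, featureCounts, Bowtie2, HOMER and DESeq2 with GRCh38 or hg38 are named by the authors, per the submitters' processing notes. No version, setting or peak caller was given in those notes. The deposited tables, per the file headers, hold DESeq2 results by the authors. The deposited signal is the mean over 4 libraries of counts divided by the authors' size factors. The deposited log2 fold change and its standard error are on the log2 scale, and the deposited score is the Wald statistic. The deposited p-value is two-sided, and its adjusted p is the authors' Benjamini-Hochberg value. The ATAC table deposited by the authors also gives another quantity, each peak's distance to a start site in bases, beside HOMER's annotation.

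The planned edgeR quasi-likelihood test was not run, because the tables hold no count columns, so the deposited Wald test is the main one. Deposited means carry 15 digits, and a mean is a sum of whole reads times 4 constants. Reads per library were solved from each mean, in genes with a mean of at most 5000 and in all peaks, and checked against the deposited fold change at the dispersion its SE implies (tolerance 0.001 on the log2 scale). The check passed for 97.43% of 15536 tested genes and 99.97% of 70312 peaks. The method was tested on simulated data. Size factors were 1.07 and 1.03 (knockout) and 1.30 and 0.717 (wild type) for RNA, and 1.08 and 0.911 (knockout) and 1.10 and 0.944 (wild type) for ATAC. Normalised counts are reads over these. The limma-voom alternative (limma 3.58.1, R 4.3.3) used the recovered reads with a prior of 0.5, was chosen after seeing the data. Precision is limited by 2 libraries per genotype. CPM is a gene's average normalised count per 1000000 of the table's total. Gene positions and transcript lengths came from GENCODE release 44, promoter windows from RefSeq. A further planned motif and some planned items are not reported here.

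Members and lists were chosen with earlier results of these data known. Genes with no adjusted p count as not tested. Named items were all 7 members, their promoter peaks, per member the called peaks with the highest and lowest fold change, and of each list up to 4 called genes of smallest adjusted p.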

Additional observations from a re-analysis of the deposited data

How the results depend on the processing

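No paired analysis was possible because the recovered libraries carry no replicate numbers. CFLAR kept its call in all 13 alternatives run. Members past the threshold numbered 4, but 1 against a 1.5-fold null (3.94% of all genes called) and 1 with Wald statistics scaled by their spread, which ended the calls of FAS (0.78), TNFRSF10B (0.93) and TNFRSF21 (1.26). These are the same fold changes under stricter tests. The share of all genes or peaks called with scaled statistics or after centring is not given here, so counts under those settings cannot be set against it. Members higher numbered 2 after centring on the local ATAC median, under which TNFRSF10B (0.040) and TNFRSF21 (1.25) lost the call and TNFRSF10A turned to -0.61. With the chromosome 8 arm centred, TNFRSF10B lost its call (0.14) and TNFRSF10A turned to -0.51. On the same centrings, the TNFRSF10A peak at chr8:23220336-23221629 turned to -0.43 and -0.41 and its promoter peak to -0.23 and -0.20. Centred on chromosome medians, TNFRSF21 lost (0.99) and FADD gained a call (0.60). TNFRSF21 (1.26) also lost its call with no filter and at an adjusted p under 0.01. Of the other genes of the route, 8 were higher, and 3, 4 and 5 were under the 1.5-fold null, scaled statistics and limma-voom, which could test 5 of those 8 and called 4 of them. Of these genes 9 were lower, and 1, 1 and 5 were under the 1.5-fold null, scaled statistics and an adjusted p under 0.01, while SHARPIN (-0.53) and PEA15 (-0.37) lost the call on local centring. Member peaks higher numbered 12, and 5 and 5 under the 1.5-fold null (8.75% of all peaks called) and scaled statistics. Member peaks lower numbered 3, and 0 and 0 under those, and 5 after local centring.

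Leaving out 1 library in turn, by limma-voom, gave 2 to 6 members called, all higher (2 to 6), with 2 without knockout library a or b. It gave 1 to 10 other genes higher, 1 to 15 lower, 11 to 16 member peaks higher and 3 to 5 lower. Ranges of the log2 fold change were 0.64 to 0.94 for FAS, 0.17 to 0.40 for TNFRSF10A, 0.79 to 1.07 for TNFRSF10B, 1.12 to 1.35 for TNFRSF21, 1.13 to 1.24 for CFLAR, 0.21 to 0.28 for CASP8 and 0.42 to 0.58 for FADD. A genotype left with 1 library is assumed to vary like the other. Without a wild-type library, the RNA spread is thus that of the knockout pair, which differed less (median 1.06-fold against 1.22-fold). Centring sets its own shift, and leaving out a library lowers their number and changes which pair sets the spread. Beyond that, the cause of these changes was not tested. The planned edgeR fits were not run. Depth limits TNFRSF21 most, at 43 to 176 reads per library.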

Other observations

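Genes within 250 kb of the members were also read. CTTN, which encodes the actin-binding protein cortactin, lies 191014 bases from FADD (chr11:70398404-70436584) and had 2160 and 2038 normalised counts in knockout and 69.1 and 97.6 in wild type, a log2 fold change of 4.68 in the authors' deposited table (SE 0.24, Wald adjusted p = 1.07e-80). It was 1 of 4 genes tested near FADD, and no other of these was called. Around TNFRSF10B and TNFRSF10A, which lie on the shifted arm of chromosome 8, CHMP7 and ENTPD4 rose by 0.86 and 0.64 on the log2 scale, while RHOBTB2, whose end overlaps that of TNFRSF10B on the opposite strand, had 2179 and 2038 normalised counts in knockout and 2693 and 4299 in wild type (log2 fold change -0.73 in the authors' deposited table, Wald adjusted p = 0.00711).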
